A study of Homo sapiens with 12 samples.

Results

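The high mobility group (HMG) proteins and the nuclear lamins are abundant proteins that shape chromatin and the nucleus. The group studied here holds 10 genes fixed by name. It comprises 7 HMG genes (HMGB1, HMGB2, HMGB3, HMGA1, HMGA2, HMGN1 and HMGN2) and 3 lamin genes (LMNA, LMNB1 and LMNB2). All 10 were among the 59424 genes of the deposited tables, and all 10 passed the filter on low values in both cell lines, where 17906 and 18705 genes were tested.

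HMG proteins bind DNA or nucleosomes with little sequence preference and make chromatin easier to bend, open or remodel. HMGB proteins bend DNA through HMG boxes, HMGA proteins grip the minor groove of AT-rich DNA through AT hooks, and HMGN proteins bind the nucleosome core. Lamins are intermediate filament proteins that form the meshwork under the inner nuclear membrane. B-type lamins (LMNB1, LMNB2) are found in nearly all cells, whereas the A-type lamins that LMNA encodes are low in embryonic cells and rise in differentiated cells. Loss of LMNB1 and of HMGB2, and release of HMGB1 from the nucleus, are known features of senescent cells, and HMGA2 is a well-known target of the let-7 microRNAs.

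RNA was sequenced from stable lines of the prostate cancer cell lines CWR22RV1 and DU145, all made by lentiviral transduction. The CWR22RV1 groups were shControl, with a control shRNA, and GALNT7 KD, with an shRNA that targets GALNT7. The DU145 groups were OE control, with a lentiviral control construct, and GALNT7 OE, with the GALNT7 open reading frame, so that all groups hold a lentiviral insert. GALNT7 is a Golgi enzyme that adds O-linked GalNAc to proteins on which other GALNT enzymes have already placed GalNAc. The study asked what changes when the GALNT7 level is lowered or raised. There were 3 biological replicates in each of the 4 groups. Nothing in the sources used here says whether a line is a clone or a pool or whether the replicates are separate transductions, so the p-values measure the spread between these 12 libraries.

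Values are normalised counts, which are the reads of a gene scaled by 1 factor for each library. CWR22RV1 libraries held 18364512 to 22264533 reads and DU145 libraries 21628718 to 24356910, as recovered from the values. The tables of the cell lines were scaled separately, so that no level was tested between them. Differences were tested with limma on log2(normalised count + 1) across all genes of a cell line with Benjamini-Hochberg adjustment, and a gene is said to rise or fall where the adjusted p is under 0.05. In bulk RNA, fewer cells of a type and less RNA per cell cannot be told apart. The epithelial keratin transcript KRT8 was 10727 ± 104 in shControl cells and 12979 ± 629 in OE control cells (SD, n=3). Of the 4 epithelial markers, EPCAM and KRT18 fell in GALNT7 KD (log2 fold changes -0.71 and -0.35), and in GALNT7 OE EPCAM rose and CDH1 fell (0.62 and -0.58). The part of these markers in the member values was not tested. The prostate marker KLK3 was 392 ± 46.3 in shControl cells (SD, n=3) and was listed at 0 in all DU145 libraries. The 5 leukocyte markers summed to between 7.32 and 26.7 in CWR22RV1 libraries, to between 95.7 and 139 in OE control and to between 37.0 and 49.3 in GALNT7 OE libraries, with CD3E at 0 throughout. The 3 endothelial markers summed to at most 54.5 in any library.

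Promoter sequences are shown because transcripts of some members are known to vary through the cell cycle, and promoters can be searched for the short elements of cell cycle genes. RefSeq (GRCh38.p14) gave 15 windows for 8 of the 10 members, and HMGB2 and HMGA2 had no entry. The 250 bases before each start were searched on both strands for the CCAAT box (CCAAT), for the letters TTTGAA and TTTAAA of the cell cycle homology region, and for the E2F-type letters TTTCCCGC, TTTGGCGC, TTTCGCGC and TTTGCCGC. Motif letters are in capitals in the lines that follow, and ATTGG is CCAAT read on the other strand. The 4 windows stand for the member with the most CCAAT boxes among those with an entry that rose in DU145 (HMGB1), a member that moved in neither comparison (HMGB3), and a pair that moved in both (HMGN2 and LMNB1).
HMGB1, chr13:30465937-30466186, minus strand: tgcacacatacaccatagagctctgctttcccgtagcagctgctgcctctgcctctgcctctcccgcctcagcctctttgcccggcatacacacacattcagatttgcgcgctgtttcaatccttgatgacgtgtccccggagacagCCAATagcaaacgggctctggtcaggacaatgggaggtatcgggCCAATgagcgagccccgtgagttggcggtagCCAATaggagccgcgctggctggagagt
HMGB3, chrX:150983085-150983334, plus strand: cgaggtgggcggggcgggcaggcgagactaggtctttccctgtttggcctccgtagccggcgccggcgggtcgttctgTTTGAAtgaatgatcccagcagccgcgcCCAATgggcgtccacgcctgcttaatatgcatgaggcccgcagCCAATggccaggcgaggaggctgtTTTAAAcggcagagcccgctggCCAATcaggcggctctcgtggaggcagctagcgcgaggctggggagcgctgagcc
HMGN2, chr1:26472190-26472439, plus strand: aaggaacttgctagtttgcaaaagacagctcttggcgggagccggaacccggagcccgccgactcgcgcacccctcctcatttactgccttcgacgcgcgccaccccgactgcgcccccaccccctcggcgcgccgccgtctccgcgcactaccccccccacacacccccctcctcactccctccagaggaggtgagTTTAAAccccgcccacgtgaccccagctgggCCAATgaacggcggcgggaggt
LMNB1, chr5:126776886-126777135, plus strand: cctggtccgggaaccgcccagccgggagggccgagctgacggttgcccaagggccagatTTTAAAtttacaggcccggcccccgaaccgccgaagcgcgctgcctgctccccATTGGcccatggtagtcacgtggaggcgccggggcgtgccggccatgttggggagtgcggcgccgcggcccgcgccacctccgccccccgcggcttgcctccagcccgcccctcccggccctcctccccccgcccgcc
The HMGB1 window holds 3 CCAAT boxes, whose first bases lie 103, 59 and 28 bases before the start. The HMGB3 window holds 3 as well, together with TTTGAA and TTTAAA. HMGN2 has TTTAAA at 53 and CCAAT at 22 bases before the start, and LMNB1 has TTTAAA at 191 and the reverse CCAAT at 138. Among all 35116 windows of the same length, CCAAT is found in 32.0%, TTTGAA in 13.3%, TTTAAA in 11.3% and an E2F-type match in 2.79%. Among the 15 windows of members, CCAAT is found in 8, TTTGAA in 3, TTTAAA in 6 and an E2F-type match in 1. HMGB1, HMGB3 and LMNB1 each have a further window without CCAAT. The only E2F-type match among the members' windows was in LMNA, 23 bases before the start of the first of its 3 windows. These matches are descriptions of letters and not of bound sites.

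The labels were checked on GALNT7 itself. Its values were 862, 1042 and 1093 in the shControl libraries and 480.5, 501 and 399.7 in GALNT7 KD. In DU145 it was 1051, 928 and 913 in the OE control and 1988, 2221 and 2334 in GALNT7 OE. The groups did not overlap in either cell line, with log2 fold changes of -1.11 (SE 0.129, limma adjusted p=0.0051) in knockdown and 1.18 (SE 0.0863, limma adjusted p=8.0e-05) in overexpression.

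**Figure D1:**
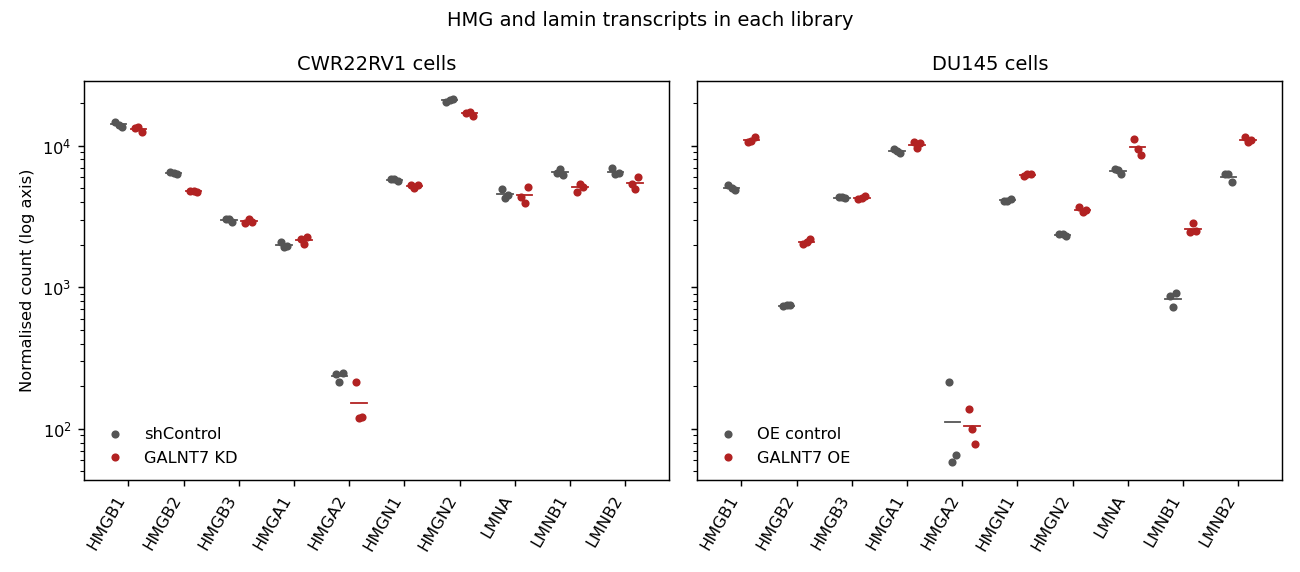
Normalised count on a log axis of each of the 10 members in each of the 12 libraries, with CWR22RV1 at left and DU145 at right. Each point is a library and each short bar a group mean of 3 libraries. HMGB2, HMGN2 and LMNB1 were lower in all GALNT7 KD than in all shControl libraries, and 7 members rose in GALNT7 OE cells.

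The members that passed the test fell in knockdown and rose in overexpression. In CWR22RV1 cells, 3 of the 10 fell with GALNT7 KD (HMGB2, HMGN2 and LMNB1) and none rose, where 3.79% of the 17906 genes tested fell, 5.28% rose and 9.06% were called in either direction. In DU145 cells, 7 of the 10 rose with GALNT7 OE and none fell, where 22.9% of the 18705 genes tested rose, 20.5% fell and 43.5% were called in either direction. The median log2 fold change of the members was -0.22 in knockdown, against -0.0063 over all genes tested, and 0.59 in overexpression, against -0.011 over all genes tested. HMGB2, HMGN2 and LMNB1 were lower in knockdown and higher in overexpression, which held for 210 of the 16124 genes tested in both (1.3%). The groups did not overlap for 7 members in knockdown and 8 in overexpression, where 32.5% and 55.3% of all genes tested did not overlap.

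**Figure D2:**
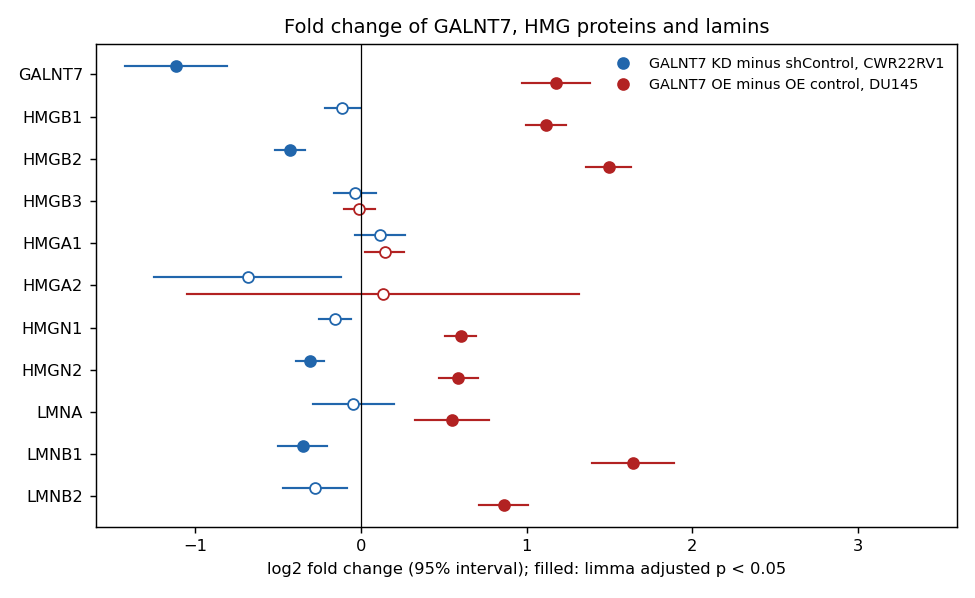
Log2 fold change with its 95% interval for GALNT7 and the 10 members, for GALNT7 KD minus shControl (blue) and GALNT7 OE minus OE control (red). Filled points passed an adjusted p of 0.05. HMGB3 lies near 0 in both comparisons, and LMNB1 and HMGB2 have the highest values in overexpression, 1.64 and 1.50.

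Of the HMGB genes, HMGB2, an HMG-box protein prominent in dividing cells, moved in both comparisons. HMGB2 (chr4:173331695-173335125, minus strand) was 6466, 6430 and 6295 in shControl libraries and 4789, 4791 and 4671 in GALNT7 KD. The spread within each group was far smaller than the gap between the groups, with means of 6397 ± 90.0 and 4750 ± 68.6 (SD, n=3), a log2 fold change of -0.43 (SE 0.0377, limma adjusted p=0.0022). In DU145 it was 736, 746 and 746 in the OE control and 2011, 2095 and 2184 in GALNT7 OE. All GALNT7 OE libraries were above all control libraries, by 2.82 fold (log2 fold change 1.50, SE 0.0571, limma adjusted p=6.2e-06).

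HMGB1, the most studied of these proteins, is a DNA-bending factor in the nucleus and an alarm signal once released from cells. HMGB1 (chr13:30456704-30617597, minus strand) was 14761, 14096 and 13614 in shControl and 13229, 13543 and 12551 in GALNT7 KD libraries. These groups did not overlap, but the difference was small and did not pass the test (log2 fold change -0.11, SE 0.0453, limma adjusted p=0.18). In DU145 cells HMGB1 was 5253, 5018 and 4863 in the OE control and 10542, 10756 and 11558 in GALNT7 OE. It was 2.17 fold higher (log2 fold change 1.12, SE 0.0501, limma adjusted p=1.0e-05), with no overlap.

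HMGB3, an X-linked paralogue with its highest expression in early development and stem cells, passed the test in neither comparison. HMGB3 (chrX:150980509-150990775, plus strand) was 3055, 3056 and 2876 in shControl and 2856, 3048 and 2878 in GALNT7 KD libraries. It was 4346, 4306 and 4254 in the OE control and 4207, 4239 and 4388 in GALNT7 OE. The groups overlapped in both cell lines, and the 95% intervals of the log2 fold change were -0.16 to 0.092 in knockdown and -0.10 to 0.084 in overexpression.

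Ratios within a library set the HMGB genes against each other. The log2 ratio of HMGB2 to HMGB1 went from -1.15 ± 0.041 in shControl to -1.46 ± 0.037 in GALNT7 KD, and from -2.76 ± 0.066 in OE control to -2.38 ± 0.022 in GALNT7 OE (SD, n=3). The log2 ratio of HMGB3 to HMGB1 went from -0.23 ± 0.041 to -1.36 ± 0.038 in DU145 (SD, n=3). These groups did not overlap, at p=0.1 each in a two-sided exact permutation test, the smallest p that 3 libraries against 3 allow (Benjamini-Hochberg adjusted p=0.175 in knockdown and 0.14 in overexpression over 7 ratios a comparison). The HMGB3 to HMGB1 ratio in CWR22RV1 differed by 0.078 with overlapping groups (exact permutation p=0.2).

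Reads of HMGB1 could be shared with its many processed pseudogenes. The 48 annotated HMGB1 pseudogenes summed to 3864 ± 228 in shControl and 3346 ± 211 in GALNT7 KD (SD, n=3), or 27.3% and 25.5% of the HMGB1 count. In DU145 they summed to 1057 ± 63.5 and 2255 ± 57.1 (SD, n=3), or 21.0% and 20.6% of the HMGB1 count. HMGB1P5 carried most of these reads and rose in GALNT7 OE cells from 875 ± 164 to 1782 ± 122 (log2 fold change 1.04, limma adjusted p=0.0013). For HMGN1, 31 pseudogenes summed to between 3.68% and 5.16% of the parent, and for HMGN2, 35 summed to between 0.433% and 2.49%. In DU145 the HMGN2 pseudogenes summed to 58.6 ± 13.9 in OE control and 19.6 ± 3.26 in GALNT7 OE (SD, n=3), whereas HMGN2 rose. HMGN2P46 and HMGB2P1 fell there (log2 fold changes -2.25 and -2.18, limma adjusted p=7.3e-04 and 0.047). HMGN1P4 and HMGB1P8 rose (log2 fold changes 0.55 and 1.92, limma adjusted p=0.041 and 0.011). Counts were low for HMGB2P1, at 11.2 ± 4.42 in OE control and 2.29 ± 2.53 in GALNT7 OE (SD, n=3). HMGB1P8 was low as well, at 2.97 ± 0.906 and 14.4 ± 5.35 (SD, n=3). Adding the pseudogenes to each parent left the called members of CWR22RV1 at 3 and gave 8 in DU145, the added member being HMGA1.

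HMGB2 is the closest protein-coding gene downstream of GALNT7 on chromosome 4. GALNT7 (chr4:173168753-173323967) runs on the plus strand and HMGB2 on the minus strand, so that the genes face each other with 7727 bases between their ends. SAP30, a subunit of the SIN3 histone deacetylase complex, begins 46001 bases from the end of GALNT7. SAP30 was 308 ± 25.0 in shControl and 216 ± 31.5 in GALNT7 KD cells (log2 fold change -0.52, SE 0.139, limma adjusted p=0.066), and 118 ± 30.7 in OE control and 185 ± 15.0 in GALNT7 OE cells (log2 fold change 0.67, SE 0.196, limma adjusted p=0.029). Leaving out any of 5 of the 6 DU145 libraries ended the SAP30 call, with adjusted p up to 0.082. The next tested coding genes, FBXO8 at 912690 bases and CEP44 at 959709 bases, passed the test in neither cell line. Whether the distance to GALNT7 or to an insert has a part in the HMGB2 values was not tested.

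**Figure D3:**
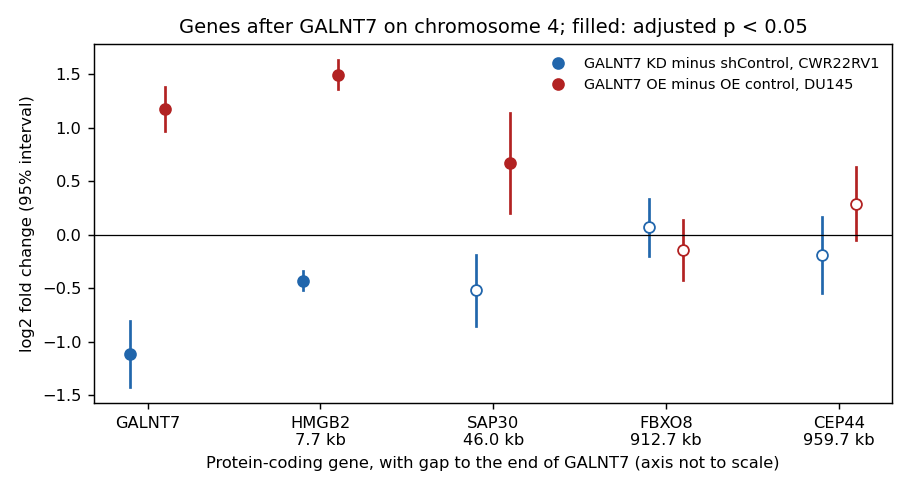
Log2 fold change with its 95% interval of GALNT7 and of the coding genes after it on chromosome 4, ordered by the gap to the end of GALNT7 (axis not to scale), for knockdown (blue) and overexpression (red). HMGB2, 7.7 kb away, is filled in both comparisons, and FBXO8 and CEP44 in neither.

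The HMGA genes code for AT-hook proteins that are low in most adult tissue and high in embryos and many tumours. HMGA1 (chr6:34236873-34246231, plus strand) was 2088, 1935 and 1948 in shControl and 2192, 2035 and 2255 in GALNT7 KD libraries, and the groups overlapped (log2 fold change 0.12, limma adjusted p=0.30). In DU145 it was 9500, 9210 and 8947 in OE control and 10625, 9582 and 10361 in GALNT7 OE. These groups did not overlap, and the difference lay just outside the threshold (log2 fold change 0.14, SE 0.0487, limma adjusted p=0.0505).

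HMGA2 was the least abundant member. HMGA2 (chr12:65824131-65966295, plus strand) was 243, 216 and 248 in shControl and 215, 119 and 121 in GALNT7 KD libraries, so that replicate 1 of GALNT7 KD lay next to the control. The log2 fold change of -0.68 (SE 0.238, limma adjusted p=0.13) did not pass the test with all libraries and was -0.96 (limma adjusted p=0.028) without that replicate. HMGA2 lies on chromosome 12, where the 922 genes tested had a median log2 fold change of -0.28 in knockdown, and it was -0.41 (limma adjusted p=0.35) after centring on the median of its chromosome. In DU145 it was 213, 58.3 and 65.5 in OE control and 137, 99.8 and 78.7 in GALNT7 OE libraries. Replicate 1 of the OE control was above every other DU145 library, and the 95% interval of the log2 fold change, -1.05 to 1.31, was wide.

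HMGN1 and HMGN2, which loosen compact chromatin by binding nucleosomes, rose together in DU145 cells. HMGN2 (chr1:26472450-26475972, plus strand) was 20332, 21102 and 21300 in shControl and 17060, 17322 and 16299 in GALNT7 KD libraries. The groups were clearly apart, with a log2 fold change of -0.31 (SE 0.0361, limma adjusted p=0.0055). In DU145 HMGN2 was 2376, 2367 and 2312 in OE control and 3697, 3387 and 3529 in GALNT7 OE, a rise of 1.50 fold (log2 fold change 0.59, SE 0.0495, limma adjusted p=0.00014).

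HMGN1 (chr21:39342315-39349647, minus strand), encoded in the Down syndrome region of its chromosome, was 5811, 5821 and 5669 in shControl and 5249, 5026 and 5279 in GALNT7 KD. The groups did not overlap, and the log2 fold change of -0.15 (SE 0.0405) missed the threshold (limma adjusted p=0.064). In DU145 HMGN1 was 4097, 4066 and 4181 in OE control and 6059, 6359 and 6320 in GALNT7 OE, 1.52 fold higher (log2 fold change 0.60, SE 0.0392, limma adjusted p=4.8e-05). The log2 ratio of HMGN2 to HMGN1 was -0.81 ± 0.041 in OE control and -0.82 ± 0.10 in GALNT7 OE (SD, n=3), with overlapping groups. In CWR22RV1 the same ratio went from 1.86 ± 0.051 to 1.70 ± 0.079 (SD, n=3) without overlap (exact permutation p=0.1, Benjamini-Hochberg adjusted p=0.175).

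Among the lamins, LMNB1, whose loss is a known marker of senescent cells, had the highest fold change of all members in DU145. LMNB1 (chr5:126776623-126837020, plus strand) was 864, 723 and 911 in OE control and 2449, 2841 and 2483 in GALNT7 OE libraries. Every GALNT7 OE library exceeded every control library, by 3.12 fold (log2 fold change 1.64, SE 0.104, limma adjusted p=4.4e-05). In CWR22RV1 LMNB1 was 6361, 6843 and 6212 in shControl and 4742, 5386 and 5104 in GALNT7 KD. The groups did not overlap, with a log2 fold change of -0.35 (SE 0.0627, limma adjusted p=0.020). This call was lost without shControl replicate 1, 2 or 3 (limma adjusted p=0.070, 0.060 and 0.052) and without GALNT7 KD replicate 1 (limma adjusted p=0.068), and the log2 fold change then lay between -0.38 and -0.30.

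LMNB2 (chr19:2427638-2456996, minus strand), the other B-type lamin gene, was 6262, 6342 and 5533 in OE control and 11459, 10561 and 10946 in GALNT7 OE. It was 1.82 fold higher (log2 fold change 0.86, SE 0.0623, limma adjusted p=7.6e-05). In CWR22RV1 it was 6981, 6282 and 6402 in shControl and 5378, 4908 and 5979 in GALNT7 KD. These groups did not overlap, but the log2 fold change of -0.28 (SE 0.0804) missed the threshold (limma adjusted p=0.080).

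LMNA (chr1:156082573-156140089, plus strand), which encodes lamins A and C, rose in DU145 cells. It was 6844, 6772 and 6296 in OE control and 11192, 9540 and 8587 in GALNT7 OE, a 1.46 fold rise (log2 fold change 0.55, SE 0.0945, limma adjusted p=0.0034). In CWR22RV1 it was 4972, 4276 and 4507 in shControl and 4348, 3948 and 5081 in GALNT7 KD, with overlapping groups and a 95% interval of -0.29 to 0.20 for the log2 fold change. Its direction there depended on single libraries, since it was 0.015 without shControl replicate 1 and 0.039 without GALNT7 KD replicate 2. The tables give 1 value a gene, so that lamin A and lamin C transcripts are not separated.

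Ratios were also taken of B-type to A-type lamin transcripts. The log2 ratio of LMNB1 to LMNA was -2.98, -3.23 and -2.79 in OE control and -2.19, -1.75 and -1.79 in GALNT7 OE libraries, a difference of 1.09 without overlap. The log2 ratio of LMNB2 to LMNA differed by 0.31 and that of LMNB1 to LMNB2 by 0.78 in DU145, also without overlap (exact permutation p=0.1 and Benjamini-Hochberg adjusted p=0.14 for each of the 3). In CWR22RV1 the log2 ratio of LMNB2 to LMNA was 0.49, 0.55 and 0.51 in shControl and 0.31, 0.31 and 0.23 in GALNT7 KD, a difference of -0.23 without overlap (exact permutation p=0.1, Benjamini-Hochberg adjusted p=0.175). The log2 ratio of LMNB1 to LMNA differed by -0.31 there and its groups overlapped (exact permutation p=0.2). A ratio within a library does not depend on its size factor, and no ratio could pass 0.05 with 3 libraries a group.

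**Figure D4:**
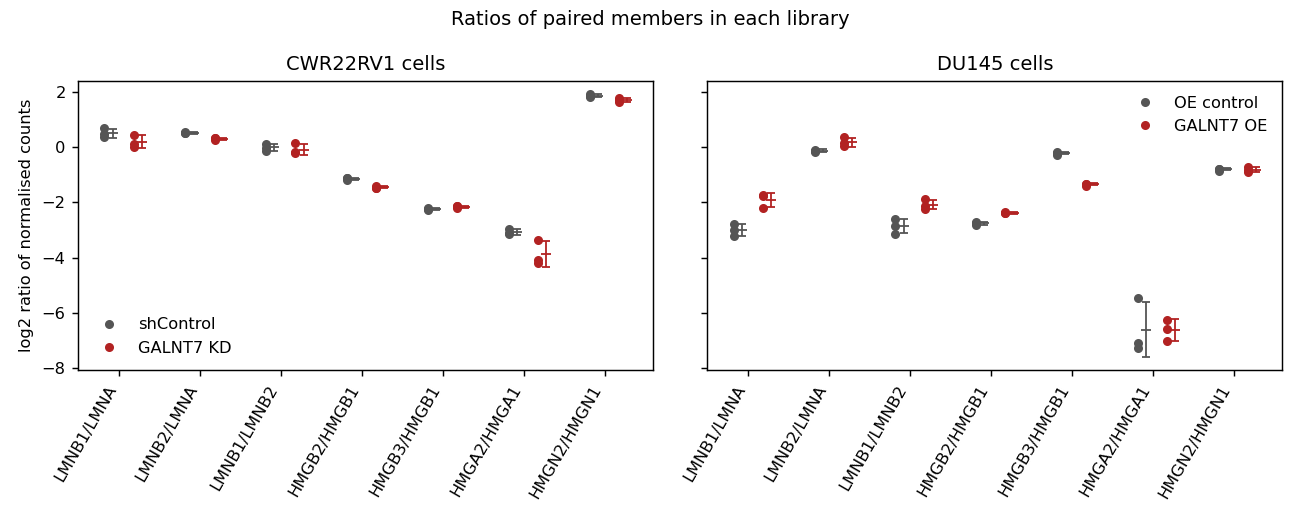
Log2 ratio of normalised counts for 7 pairs of members in each library, with CWR22RV1 at left and DU145 at right. Points are libraries and the bars beside them show the mean ± SD of 3 libraries. In DU145 the LMNB1 to LMNA ratio is higher and the HMGB3 to HMGB1 ratio lower in every GALNT7 OE library than in every OE control library.

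The order of the members by level differed between the cell lines. Per kilobase of annotated exon, HMGN2 was highest in shControl cells at 8335 ± 204 normalised counts, followed by HMGB2 at 2305 ± 32.4 (SD, n=3). HMGB1 at 1833 ± 74.6 and LMNB1 at 1781 ± 90.8 came next and their libraries overlapped. LMNB2, HMGN1, HMGA1, HMGB3 and LMNA followed, from 1207 ± 68.8 down to 656 ± 50.8 per kilobase, and HMGA2 was lowest at 15.3 ± 1.13.

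In OE control cells HMGA1 was highest at 3962 ± 119 normalised counts per kilobase, and HMGB2 at 268 ± 2.01, LMNB1 at 229 ± 26.9 and HMGA2 at 7.29 ± 5.66 were the lowest (SD, n=3). LMNB2 and HMGB3 came after HMGA1 and overlapped, and LMNA and HMGN2, next in order, overlapped as well. In GALNT7 OE cells HMGA1 remained highest at 4379 ± 233 and LMNB2 came next at 2023 ± 82.9 per kilobase. HMGB1 moved from rank 7 to rank 3, at 1418 ± 69.4 per kilobase, although its libraries overlapped those of HMGN2. HMGB2 and LMNB1 were again at ranks 8 and 9 by their means, at 755 ± 31.2 and 713 ± 59.7, and their libraries overlapped. Exon length is the union over annotated transcripts, so that genes with long alternative exons such as HMGA2 have a lower value on this scale than their main transcript would give.

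Other HMG-box and HMGN genes with SUPT16H, the partner of the HMG-box protein SSRP1, taken as a list of 17, did not pass the test in CWR22RV1 cells, with 0 of 16 tested called and a median log2 fold change of 0.021. In that cell line 9.06% of all genes tested were called, and 4675 had an unadjusted p under 0.05. In DU145 cells 10 of the 16 rose and none fell, with a median of 0.34, where 22.9% of all genes tested rose. HMGB4, a testis gene, was listed at 0 in both cell lines. Both FACT subunits, which move histones ahead of polymerases, were among the 10 that rose. SSRP1 rose from 4975 ± 127 to 10820 ± 171 (log2 fold change 1.12, limma adjusted p=3.6e-06) and SUPT16H from 7115 ± 64.6 to 9472 ± 256 (log2 fold change 0.41, limma adjusted p=1.6e-04). The replication factor WDHD1 rose by a log2 fold change of 1.05, the mitochondrial packaging factor TFAM by 0.46, and the nucleosome-binding genes HMGN3, HMGN4 and HMGN5 by 0.34, 0.34 and 1.01. SMARCE1 rose by 0.42, HMGXB4 by 0.31 and PBRM1 by 0.45, and the calls of HMGXB4 and PBRM1 were each lost without any of 4 single libraries (limma adjusted p up to 0.082 and 0.070). The HMGXB4 and PBRM1 calls were also lost with rescaling to the 75th percentile (limma adjusted p=0.089 and 0.0504) and with quantile normalisation (limma adjusted p=0.087 and 0.0503).

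Linker histone H1F0 moved the other way in both comparisons. H1F0, the replication-independent H1.0 known from resting and differentiated cells, rose in GALNT7 KD from 8683 ± 169 to 10806 ± 97.0 (log2 fold change 0.32, limma adjusted p=0.0037, and 0.053 with eBayes without trend) and fell in GALNT7 OE from 9936 ± 136 to 4603 ± 86.0 (log2 fold change -1.11, limma adjusted p=3.2e-06). H1FX also fell in GALNT7 OE (log2 fold change -0.57, limma adjusted p=0.0077) and was 4318 ± 203 in shControl and 3883 ± 615 in GALNT7 KD cells (limma adjusted p=0.41).

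Of the lamina and inner nuclear membrane genes, 2 of 15 tested fell in GALNT7 KD and 8 of 15 rose in GALNT7 OE, with none in the opposite direction. Over all genes tested, 3.79% fell in GALNT7 KD and 22.9% rose in GALNT7 OE. NRM, the other gene of the list, was not analysed here. TMPO, which encodes the lamin-binding LAP2 proteins, fell from 11387 ± 255 to 8394 ± 393 in knockdown (log2 fold change -0.44, limma adjusted p=0.0034) and rose from 3007 ± 116 to 8238 ± 505 in overexpression (log2 fold change 1.45, limma adjusted p=7.1e-06). TMPO lies on chromosome 12, and its knockdown call was lost after centring on the chromosome median (log2 fold change -0.16, limma adjusted p=0.078). BANF1, the DNA-bridging partner of LEM-domain proteins, fell from 4095 ± 70.8 to 3237 ± 346 in knockdown (limma adjusted p=0.048) and rose from 2514 ± 154 to 4014 ± 170 in overexpression (log2 fold change 0.68). The BANF1 call in knockdown was lost without any of 5 of the 6 libraries, with limma adjusted p up to 0.15.

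In DU145 cells the lamin B receptor LBR rose from 1963 ± 197 to 3462 ± 43.8 (log2 fold change 0.82, limma adjusted p=2.3e-04), and VRK1, a kinase that phosphorylates BANF1, rose from 275 ± 100 to 1157 ± 257 (log2 fold change 2.12, limma adjusted p=0.0013). SYNE1, TOR1A, LEMD2 and EMD rose by log2 fold changes of 0.67, 0.37, 0.28 and 0.27, and the calls were lost without any of 4 single libraries for SYNE1 and any of 3 for EMD (limma adjusted p up to 0.090 and 0.083). The EMD call was also lost with rescaling to the 75th percentile (limma adjusted p=0.14) and with quantile normalisation (limma adjusted p=0.11). LEMD2 lost its call with quantile normalisation (limma adjusted p=0.058). The linker genes SUN1 and SUN2 did not pass the test in either cell line. Of the 5 genes for farnesylation and cleavage of prelamins, none passed in knockdown, where 9.06% of all genes tested were called. In overexpression ICMT and ZMPSTE24 rose (log2 fold changes 0.26 and 0.47) and FNTB fell (log2 fold change -0.36), where 43.5% of all genes tested were called. The FNTB call was lost without any of 3 single libraries (limma adjusted p up to 0.071).

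**Figure D5:**
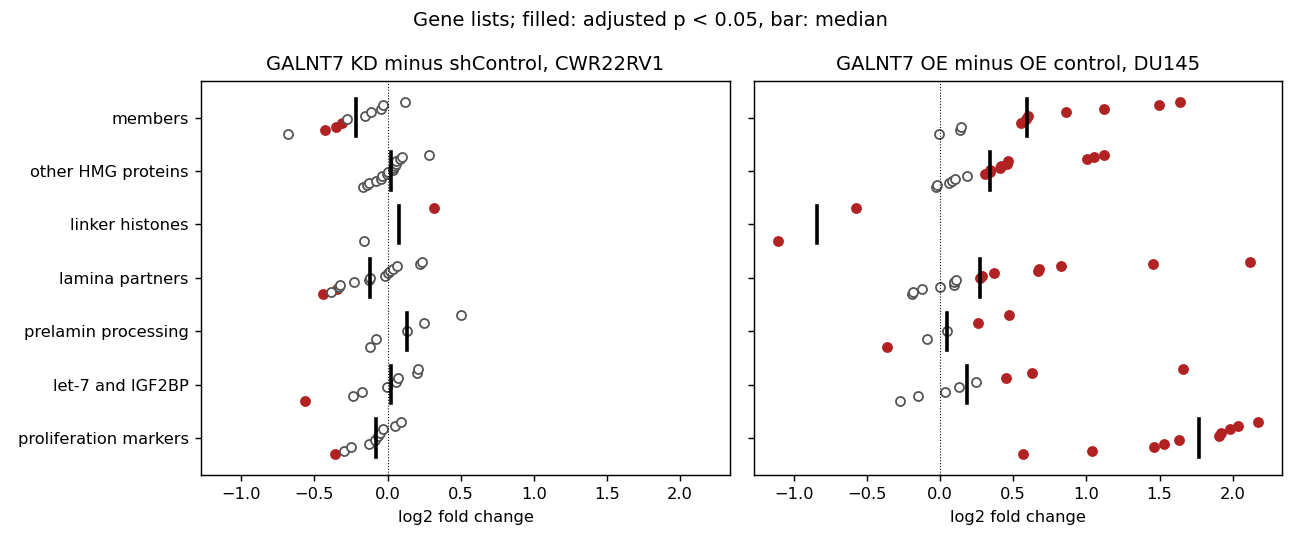
Log2 fold change of every tested gene of 7 lists in GALNT7 KD minus shControl (left) and GALNT7 OE minus OE control (right). Filled points passed an adjusted p of 0.05 and black bars are list medians. The medians of the members lie at -0.22 and 0.59 and those of the proliferation markers at -0.076 and 1.77.

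Receptors for extracellular HMGB1 were low. In CWR22RV1 3 of the 5 passed the filter and none was called, where 9.06% of all genes tested were called. TLR4 was listed at 0 in both cell lines. In DU145 2 of the 4 tested fell and none rose, where 20.5% of all genes tested fell and 43.5% were called in either direction. CXCR4 fell from 93.1 ± 5.89 to 8.83 ± 2.20 (log2 fold change -3.28, limma adjusted p=8.7e-05) and TLR2 from 28.8 ± 0.337 to 7.29 ± 0.991 (log2 fold change -1.85, limma adjusted p=0.0013).

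Genes of the let-7 pathway and the IGF2BP mRNA-binding proteins, which are known regulators of HMGA2, had 8 of 10 tested in each cell line. In GALNT7 KD only TARBP2, a Dicer partner on chromosome 12, was called (log2 fold change -0.56, limma adjusted p=0.032), where 9.06% of all genes tested were called. TARBP2 was not called after centring on the chromosome median (limma adjusted p=0.19) or without any of 5 single libraries (limma adjusted p up to 0.11). In GALNT7 OE 3 of the 8 rose and none fell, where 22.9% of all genes tested rose and 43.5% were called in either direction. IGF2BP3 went from 205 ± 6.47 to 652 ± 86.9 (log2 fold change 1.66, limma adjusted p=6.7e-05), and XPO5 and DROSHA rose by 0.63 and 0.45. LIN28A and LIN28B, which block let-7 maturation, had means under 3 normalised counts in all groups.

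Proliferation markers rose in DU145 cells, as did 7 of the 10 members. All 10 markers rose in GALNT7 OE with a median log2 fold change of 1.77, where 22.9% of all genes tested rose. Their summed normalised count went from between 19616 and 19881 in OE control to between 57786 and 64629 in GALNT7 OE libraries. In CWR22RV1 1 of 10 fell, the thymidylate synthase gene TYMS (log2 fold change -0.36, limma adjusted p=0.0053), where 3.79% of all genes tested fell. The sums there were 53154 to 61122 in shControl and 50807 to 54222 in GALNT7 KD, which overlap. The part of these markers in the values of the members was not tested.

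Fibroblast markers also differed between the groups in their sum, most of which was LUM in CWR22RV1 and COL1A1 in DU145. Their summed count over 5 genes was 271 to 346 in shControl and 705 to 786 in GALNT7 KD, with LUM called of the 5, and 303 to 430 in OE control and 66.5 to 163 in GALNT7 OE, with COL1A1 called of the 2 tested. LUM was listed at 0 in every DU145 library. Their part in the member values was not tested.

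Genes nearest to each member were found by the root mean square distance of log2(normalised count + 1) over the 12 libraries, centred on the control mean of each cell line, among 10725 protein-coding genes. The pattern over libraries includes the change between groups, so that nearness is a description with no test. TYMS, TMPO and RACGAP1 were nearest to HMGB2, at distances of 0.045 to 0.061. ACAT1, UNG and SSRP1 were nearest to HMGB1, and INSIG1, KIF4A and CDCA3 to LMNB1. HNRNPAB, BUB3 and SFPQ were nearest to HMGN1, and TPI1, PCGF5 and BLOC1S1 to HMGN2. MRPL4, WDR34 and TUBB6 were nearest to LMNA, and TUBB4B, FADS2 and STK32C to LMNB2. FKBP2, AAMP and YWHAG were nearest to HMGA1, and WRNIP1 and RAB11A were among the 3 nearest to HMGB3. The gene nearest to HMGA2, ULK4, was at a distance of 0.37. Of the genes named as nearest, TMPO, RACGAP1, UNG, TPI1, BLOC1S1 and CDCA3 lie on chromosome 12. The median log2 fold change of that chromosome in knockdown was -0.28, and its part in these distances was not tested.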

How the data were processed

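RNA from 12 libraries of stable CWR22RV1 and DU145 lines (3 per group) was extracted with an RNeasy kit and prepared with a stranded mRNA kit. The authors deposited a signal per gene and library, a normalised count, in 1 table per cell line. The submitters' processing notes name FastQC, Salmon, DESeq2, R 3.5.3 and hg38, with no role or order; the annotation release is not given in the sources used here. Values were whole multiples of the smallest value of a library (100%, within 0.01 reads), which gave the recovered reads. Names and positions came from GENCODE 29 (GRCh38), which names 56113 of 59424 identifiers.

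limma 3.58.1 in R 4.3.3 (lmFit, eBayes with trend) was fitted to log2(normalised count + 1) in each cell line by itself, with a minimum mean of 5 over its 6 libraries. Fold changes on this scale understate the change of low genes. Benjamini-Hochberg adjustment ran over all genes tested, with a threshold of 0.05. Ratios of paired members were tested with a two-sided exact permutation test. The scripts were tested on simulated data. Replicates differed by more than sampling noise (chi-square per gene 8.77 to 23.7), so that each counted as its own sample. Alternatives were other pseudocounts (0.5 and 5), filters, scalings and thresholds, eBayes without trend, a replicate block, leaving out each replicate, pseudogene sums, chromosome centring, and edgeR 4.0.16 and DESeq2 1.42.0 on recovered reads.

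The named genes were GALNT7, the 10 members, their pseudogenes, genes of the lists, tested genes within 1 Mb of GALNT7 and the 3 nearest genes to each member. The members and lists were chosen with earlier results of these data known. The authors' own comparisons were not used.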

Additional observations from a re-analysis of the deposited data

How the results depend on the processing

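Of 418 alternative values for the log2 fold changes of GALNT7 and the members, 393 kept their direction and side of the threshold, 10 passed the threshold only under the alternative, 7 no longer passed it and 8 changed direction. For SAP30 and the called genes of the HMG, linker histone, lamina, prelamin, receptor, let-7 and proliferation lists, 771 of 835 alternative values kept the call. The other 64 lost it. The members called in knockdown numbered 3, 1 with eBayes without trend (HMGB2), 5 with DESeq2 on recovered reads (with HMGN1 and LMNB2 added), 3 with edgeR and 2 to 4 with a replicate left out. The members called in overexpression numbered 7 or 8 under every alternative run, 7 with edgeR and 8 with DESeq2 (HMGA1 added). Over all genes, knockdown calls went from 1623 to 2587 with DESeq2, 1002 with the replicate block, 996 when eBayes had no trend, 392 at a threshold of 0.01 and 539 to 1336 with a replicate left out, and overexpression calls from 8132 to 5303 at 0.01 and 6757 to 7629 with a replicate left out. Rescaling DU145 to the 75th percentile moved the median log2 fold change of all genes from -0.011 to -0.11 and the split of calls from 4290 higher and 3842 lower to 3380 and 4736, and the 7 members stayed called as higher. Same-numbered libraries did not deviate together (correlations of -0.011 to 0.075), and with the replicate block 3 members were called in knockdown and 7 in overexpression.

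The directions that changed were of values that did not pass the test: LMNA in knockdown (0.015 without shControl replicate 1 and 0.039 without GALNT7 KD replicate 2, range from -0.14), HMGB3 in overexpression (0.0036 without GALNT7 OE replicate 1, range from -0.027), HMGA2 in overexpression (-0.20 and -0.12 without OE control replicates 2 and 3, -0.076 without GALNT7 OE replicate 1, range up to 0.72, and -0.096 with edgeR and -0.093 with DESeq2), and, in overexpression, the log2 ratios HMGA2 to HMGA1 (0.56 without OE control replicate 1, 0.19 without GALNT7 OE replicate 3, range from -0.35) and HMGN2 to HMGN1 (0.030 without GALNT7 OE replicate 2, range from -0.068). HMGN2 in knockdown had an adjusted p of 0.065 with eBayes without trend. The cause was not tested. Low counts limit what can be shown for HMGA2, the HMGB1 receptors and the pseudogenes HMGB2P1 and HMGB1P8.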
